A study of Homo sapiens with 4 samples.

Results

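The genes described here encode the enzymes that turn acetyl-CoA into cholesterol, the transcription factor SREBP2 with the proteins that hold it in the endoplasmic reticulum (ER) or release it, and 4 proteins of sterol transport, esterification and membrane lipid remodelling. Of 29 genes listed by symbol, 27 had an array feature annotated with that gene alone, among 17687 named genes tested. Each of the 27 had 1 feature, so no choice between features was needed. FDFT1 and MBTPS2 were not analysed here. The listed genes include no receptor for lipoprotein uptake, so uptake is described below from a separate list.

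The values come from 4 Affymetrix expression arrays of NB4-R4 cells, which derive as a subclone from NB4, a line of acute promyelocytic leukaemia, and resist all-trans retinoic acid. Both groups were grown in medium with heat-inactivated foetal bovine serum and harvested after 96 h. One group (2 arrays) received MK-8776 at 4 µM, an inhibitor of the checkpoint kinase CHK1, and the other (2 arrays) received the vehicle DMSO. All results concern 1 subclone, 1 dose and 1 time, and the labels do not say how the 2 cultures of a group were separated, so the p-values measure the spread between these arrays, which may be technical. A level is an RMA expression value on the log2 scale, and a change is the mean of the MK-8776 arrays minus that of the DMSO arrays. Each change is given with its standard error (SE) and an adjusted p from limma, adjusted by Benjamini-Hochberg over all 17687 genes with a threshold of 0.05.

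Cells make cholesterol from acetyl-CoA through mevalonate, isoprenoid diphosphates, squalene and lanosterol. When ER sterol is low, SCAP carries SREBP2 to the Golgi, where proteases cut it, and the released part enters the nucleus and switches on genes of synthesis and uptake. When sterol is high, INSIG proteins hold SCAP and SREBP2 in the ER, and INSIG1 is itself a target of the factor. In blood cells and leukaemia lines the pathway supplies membrane sterol for growth as well as the isoprenoids that anchor small GTPases.

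TMEM97, a sterol-regulated membrane protein gene, and DHCR7, the gene of a late enzyme of synthesis, fell after MK-8776. Of the 27 genes these 2 fell, 0 rose and 25 did not pass the threshold in the limma fit. Whatever the p, 17 genes had a lower and 10 a higher mean. These calls are 7.41% of the genes measured, against 3.69% of all genes tested, 2.02% falling and 1.66% rising. An unadjusted p under 0.05 was found for 10 of the 27, 7 with a lower and 3 with a higher mean after MK-8776. That is 37.0% of the 27 (25.9% lower, 11.1% higher), beside 18.8% of all genes tested (10.2% lower, 8.61% higher). The median change of the 27 was -0.045, beside 0.005 over all genes. These are RNA levels of bulk cultures, in which fewer cells expressing a gene and less of its RNA per cell cannot be told apart.

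**Figure D1:**
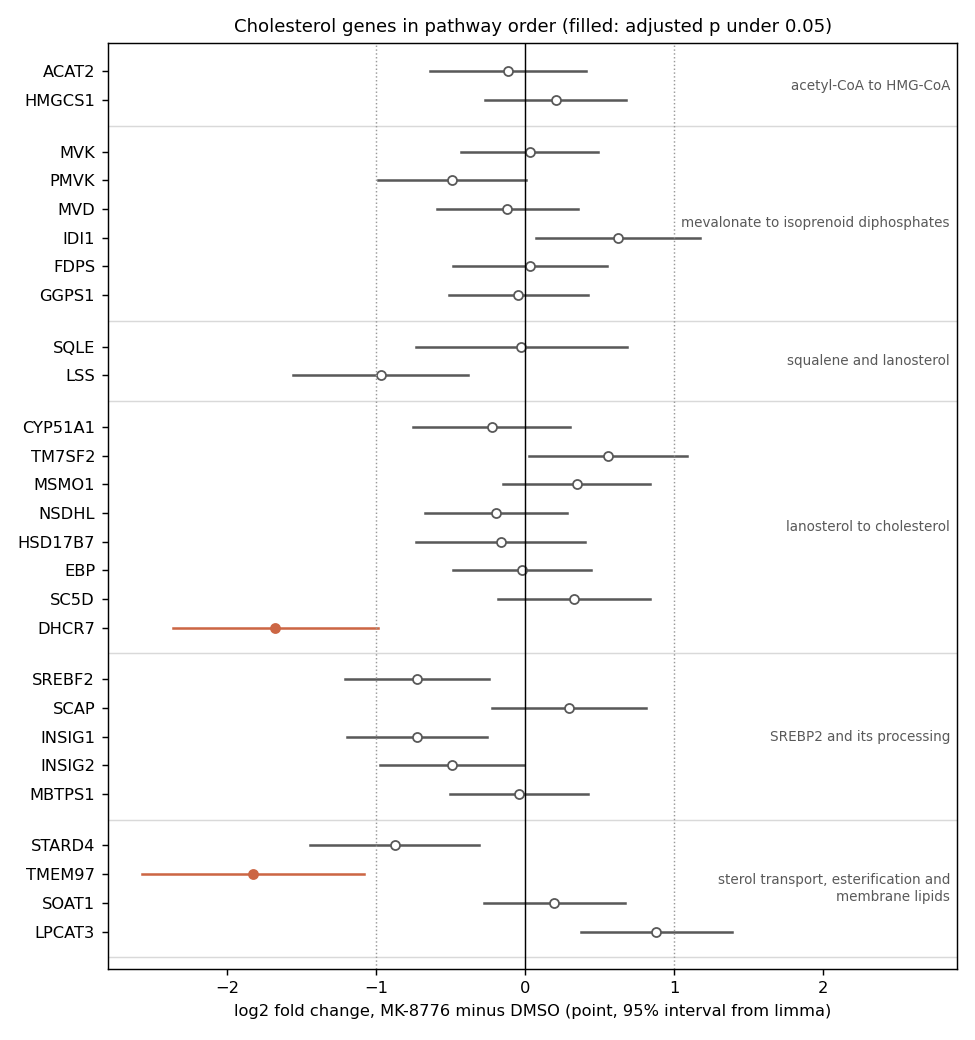
Log2 fold change (horizontal axis, MK-8776 minus DMSO) of the 27 measured genes in pathway order, with 95% intervals from limma; filled points have an adjusted p under 0.05 and dotted lines mark a 2-fold change. DHCR7 (-1.68) and TMEM97 (-1.83) stand to the left, while most enzymes lie near 0.

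TMEM97 encodes an ER membrane protein, also known as the sigma-2 receptor, that is induced when sterol is low. Its feature (TC1700007360.hg.1, chromosome 17, 28319200 to 28328685, GRCh38) read 12.26 and 12.84 in DMSO and 10.29 and 11.16 in MK-8776. Both treated arrays lay more than 1 log2 unit under the lower control. TMEM97 fell by 1.83 (SE 0.33, adjusted p = 0.0247, limma), a 3.54-fold decrease with a 95% interval of the log2 change from -2.57 to -1.08. In the order of all 17687 changes, from the most negative, TMEM97 stood at rank 63 and DHCR7 at rank 85.

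DHCR7 encodes the reductase of the last step of one branch of the pathway, which makes cholesterol from 7-dehydrocholesterol. The gene (feature TC1100011514.hg.1, chromosome 11, 71427287 to 71449043) measured 10.14 and 10.38 on the DMSO arrays and 8.15 and 9.02 on the MK-8776 arrays. The groups were apart, and the MK-8776 arrays were also apart from each other, with an SD of 0.62 against 0.17 in DMSO. DHCR7 fell by 1.68 (SE 0.30, adjusted p = 0.0247, limma), a 3.19-fold decrease with an interval from -2.36 to -0.99.

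Neither call held when any 1 of the 4 arrays was left out. Such a fit leaves 1 group with a single array, and few or no genes of the whole array pass. The loss of these 2 calls is therefore not particular to TMEM97 or DHCR7. The change of TMEM97 then ran from -2.26 to -1.39 with an adjusted p from 0.0822 to 0.447, and that of DHCR7 from -2.11 to -1.24 with an adjusted p from 0.0750 to 0.446 (limma). MK-8776 replicate 1 carried the larger difference in both genes, and without it their changes were -1.39 and -1.24. TMEM97 shares 360 bases with IFT20 in the RefSeq gene table, and DHCR7 shares 516 with the transcript DHCR7-DT. IFT20 had means of 8.70 in DMSO and 8.66 in MK-8776, and DHCR7-DT was not analysed here.

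The start sites of these genes are shown because TMEM97 and DHCR7 are the genes that fell, SREBF2 encodes the factor of the pathway, and LPCAT3 had the highest change of the 27. Each line gives the 250 bases before a RefSeq start site (GRCh38.p14) on the strand of the gene. For a gene with several start sites, as DHCR7, the window with the most motif matches was chosen. Capitals mark matches on either strand to 3 motifs, the sterol regulatory element core TCACNCCAC bound by SREBP factors, the NF-Y box CCAAT and the GC box GGGCGG bound by Sp1. No matches to different motifs shared bases. The windows are chr17:28318950-28319199 (plus strand) for TMEM97, chr11:71448394-71448643 (minus) for DHCR7, chr22:41832855-41833104 (plus) for SREBF2 and chr12:7018477-7018726 (minus) for LPCAT3.
TMEM97: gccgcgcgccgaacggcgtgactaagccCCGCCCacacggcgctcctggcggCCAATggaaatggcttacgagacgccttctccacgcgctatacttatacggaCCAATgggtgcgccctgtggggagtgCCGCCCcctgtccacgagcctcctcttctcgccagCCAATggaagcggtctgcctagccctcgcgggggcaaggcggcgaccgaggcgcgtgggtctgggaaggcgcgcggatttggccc
DHCR7: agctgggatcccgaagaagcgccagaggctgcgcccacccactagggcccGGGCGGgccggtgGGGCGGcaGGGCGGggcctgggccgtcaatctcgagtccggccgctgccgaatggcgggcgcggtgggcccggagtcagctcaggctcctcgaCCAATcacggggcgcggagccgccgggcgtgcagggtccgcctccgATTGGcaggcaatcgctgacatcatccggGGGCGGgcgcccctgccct
SREBF2: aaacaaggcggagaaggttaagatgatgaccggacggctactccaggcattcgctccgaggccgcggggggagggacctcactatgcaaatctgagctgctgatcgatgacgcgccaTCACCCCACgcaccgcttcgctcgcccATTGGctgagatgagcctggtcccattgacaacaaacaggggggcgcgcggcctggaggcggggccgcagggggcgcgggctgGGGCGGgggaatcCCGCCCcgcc
LPCAT3: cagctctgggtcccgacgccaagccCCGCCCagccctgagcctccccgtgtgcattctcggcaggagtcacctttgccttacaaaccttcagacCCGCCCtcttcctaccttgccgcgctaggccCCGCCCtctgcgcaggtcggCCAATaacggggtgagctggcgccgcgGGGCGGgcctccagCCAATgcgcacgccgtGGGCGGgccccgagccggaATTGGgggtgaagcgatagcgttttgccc

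TMEM97 showed 3 NF-Y boxes and 2 GC boxes, and DHCR7 2 NF-Y boxes and 4 GC boxes. DHCR7 has 2 start sites in the table, and the window of the other one held no match. SREBF2 alone among the 25 genes searched held the sterol regulatory element core, with its first base at -133 from the start site. It also held an NF-Y box at -106. LPCAT3, which measured higher after MK-8776, held 3 NF-Y boxes, as many as TMEM97, and 5 GC boxes.

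RefSeq windows of 25 of the 27 genes were searched, 33 windows in all. SQLE, on chromosome 8, was left out of the search, whereas the comparison windows kept that chromosome. The NF-Y box was in 66.7% of these windows, against 32% of all 35116 windows of this length and 32.8% of those of genes tested. The GC box was in 87.9%, against 42.6% of all windows and 54.4% of those of genes tested. Counted by gene, an NF-Y box was held by 20 of the 25, against 37% of all genes with a window and 40.5% of those tested. It was held by 7 of the 9 genes with both MK-8776 arrays below both DMSO arrays, by 7 of the 8 with both above, and by 6 of 8 whose groups overlapped. The sterol regulatory element core was in 0.883% of all windows. A match describes letters in the window, and its absence says nothing about binding of the factor.

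At the entry to the pathway, no gene passed. ACAT2, which joins acetyl-CoA units, read 8.78 and 9.01 in DMSO and 8.59 and 8.97 in MK-8776, so the groups overlapped (change -0.12, SE 0.23). HMGCS1, the cytosolic HMG-CoA synthase, was slightly higher on both MK-8776 arrays (8.70 and 8.67 against 8.38 and 8.58), with a change of 0.21 (SE 0.21, adjusted p = 0.668, limma).

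Between mevalonate and the isoprenoid diphosphates 0 of 6 genes passed, with a median change of -0.01 and 1 unadjusted p under 0.05, that of IDI1. MVK, the mevalonate kinase, and MVD, the decarboxylase that makes isopentenyl diphosphate, were within their spread at 0.03 and -0.12. PMVK, the next kinase after MVK, read 7.09 and 6.89 in DMSO and 6.36 and 6.64 in MK-8776, lower on both arrays (change -0.49, SE 0.22, adjusted p = 0.274, limma). IDI1, the isomerase of isopentenyl diphosphate, was higher on both, at 9.23 and 8.73 against 8.45 and 8.26 in DMSO (change 0.63, SE 0.24, adjusted p = 0.208, limma). FDPS, which makes farnesyl diphosphate at the branch to sterols, had a change of 0.04, and GGPS1, which extends it to geranylgeranyl diphosphate, of -0.05, both with overlapping groups.

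In the squalene steps 2 of the 3 listed genes were measured, and 0 passed in the limma fit (LSS had an unadjusted p under 0.05). SQLE, the squalene epoxidase and a rate-limiting enzyme, read 7.88 and 8.13 in DMSO and 7.52 and 8.44 in MK-8776, 1 treated array below and 1 above both controls. Its change was -0.03 (SE 0.31), which became -0.49 when MK-8776 replicate 2 was left out and 0.44 when replicate 1 was. LSS, the cyclase that makes lanosterol, read 8.35 and 8.30 in DMSO and 7.03 and 7.68 in MK-8776. That is a change of -0.97 (SE 0.26), which missed the threshold (adjusted p = 0.0847, limma) and did so in each alternative run.

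Of the 8 genes from lanosterol to cholesterol, DHCR7 alone passed. CYP51A1, the lanosterol demethylase, NSDHL, a decarboxylating dehydrogenase, and HSD17B7, the following ketoreductase, were at -0.23, -0.20 and -0.17. HSD17B7 has a near-identical pseudogene copy, so the origin of its signal is uncertain. TM7SF2, a sterol C14 reductase, read 10.08 and 10.02 in DMSO and 10.37 and 10.84 in MK-8776 (change 0.56, SE 0.23, adjusted p = 0.246, limma). MSMO1, the sterol C4 methyl oxidase, was at 0.35 and SC5D, the sterol C5 desaturase, at 0.33, with both MK-8776 arrays above both DMSO arrays in each. EBP, the sterol isomerase, read 12.97 and 13.03 in DMSO and 12.94 and 13.02 in MK-8776, with overlapping groups. SC5D and DHCR7, which act one after the other, had changes of 0.33 and -1.68, with 95% intervals from -0.18 to 0.84 and from -2.36 to -0.99. The difference between genes was not tested.

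Over all steps of synthesis, 18 enzyme genes were measured, of which DHCR7 fell and 17 did not pass. Their median change was -0.035, with 4 unadjusted p under 0.05, a cut that 18.8% of all genes met. For 14 of the 18 the 95% interval of the change lay inside a 2-fold change in either direction. Those that reached it were DHCR7 and LSS on the lower side and IDI1 and TM7SF2 on the higher side. These intervals are per gene and not adjusted for the number of genes. The share of all genes with an interval inside a 2-fold change was not counted.

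SREBF2, INSIG1 and INSIG2 measured lower after MK-8776, whereas SCAP did not, and no gene of SREBP2 processing passed. SREBF2, the gene of SREBP2 (chromosome 22, 41833105 to 41907305), read 10.10 and 10.12 in DMSO and 9.52 and 9.25 in MK-8776. Both treated arrays were lower, with a change of -0.73 (SE 0.21, adjusted p = 0.109, limma). INSIG1 (chromosome 7, 155297878 to 155310235) read 9.10 and 9.22 in DMSO against 8.39 and 8.48 in MK-8776. Its change was also -0.73 (SE 0.20, adjusted p = 0.101, limma), and it ran from -0.79 to -0.67 when 1 array was left out.

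INSIG2, the second INSIG gene, which is not known as a direct target of SREBP2, read 9.18 and 9.29 in DMSO and 8.86 and 8.63 in MK-8776 (change -0.49, SE 0.21, adjusted p = 0.258, limma). SCAP, the escort protein, read 10.41 and 10.53 in DMSO and 10.97 and 10.56 in MK-8776 (change 0.30, SE 0.23). MBTPS1, the site-1 protease that makes the first cut, had overlapping groups, 10.89 and 10.84 against 10.78 and 10.87. SREBF2 hosts the microRNA gene MIR33A and overlaps SREBF2-AS1, neither of which was analysed here.

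**Figure D2:**
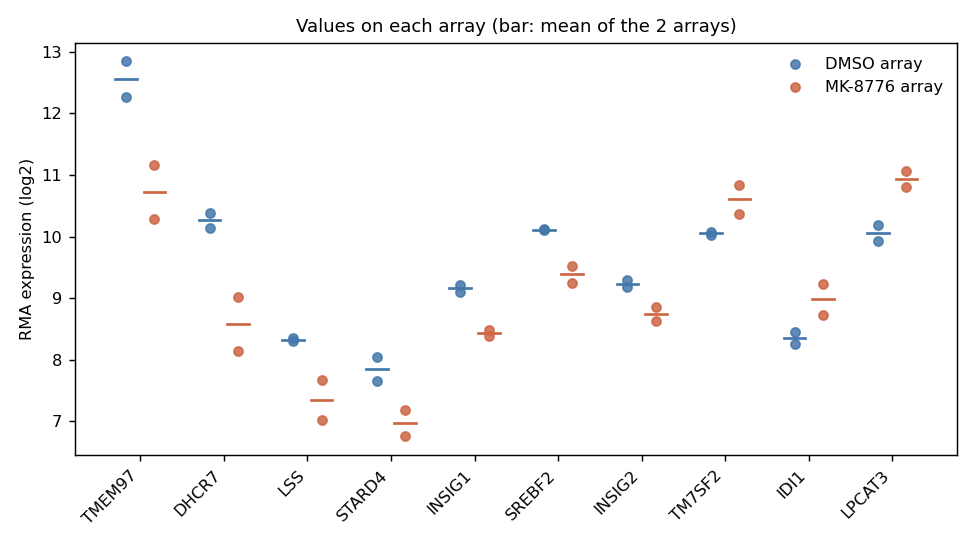
RMA expression (log2, vertical axis) on each of the 4 arrays for the 10 genes with an unadjusted p under 0.05, ordered by change, with bars at the mean of the 2 arrays of a group. Of the 10, 7 are lower and 3 higher after MK-8776, and TMEM97 and DHCR7 alone passed after adjustment. The groups do not overlap in any of them, which the choice by p from the same arrays favours. Over all genes tested 18.8% met this cut.

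STARD4, a soluble carrier that moves cholesterol between membranes and is a known SREBP2 target, read 7.65 and 8.05 in DMSO and 6.76 and 7.19 in MK-8776. It was thus lower on both treated arrays, with a change of -0.88 (SE 0.25, adjusted p = 0.102, limma). SOAT1, the ER enzyme that esterifies cholesterol for storage, read 9.38 and 9.40 in DMSO and 9.68 and 9.49 in MK-8776 (change 0.20, SE 0.21, adjusted p = 0.684, limma).

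LPCAT3 encodes an ER acyltransferase that puts polyunsaturated chains into phospholipids and is known as a target of the sterol receptor LXR. It read 10.19 and 9.92 in DMSO and 11.07 and 10.80 in MK-8776, higher on both treated arrays. The change of 0.88 (SE 0.22) missed the threshold (adjusted p = 0.0735, limma). It passed with a variance trend (0.0255) and among genes above the median level (0.0420), and not in the other 9 alternatives. LPCAT3 overlaps EMG1 over 21244 bases, and EMG1 had a change of -0.59 (adjusted p = 0.224, limma).

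Considering the arrays alone, both MK-8776 arrays lay below both DMSO arrays in 9 of the 27 genes and above them in 8, and the groups overlapped in 10. Over all genes tested the shares were 24.2% below and 24% above, against 33.3% and 29.6% of the 27. The 9 lower genes were TMEM97, DHCR7, LSS, STARD4, SREBF2, INSIG1, INSIG2, PMVK and NSDHL. The 8 higher genes were LPCAT3, IDI1, TM7SF2, MSMO1, SC5D, SCAP, HMGCS1 and SOAT1. Between the 2 that fell and the rest, 8 genes had an unadjusted p under 0.05 without passing, with an adjusted p from 0.0735 to 0.258 (limma). All 27 had means above 3.97, the lower quartile of the table, in both groups, the lowest being 5.78 for MVD in MK-8776.

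**Figure D3:**
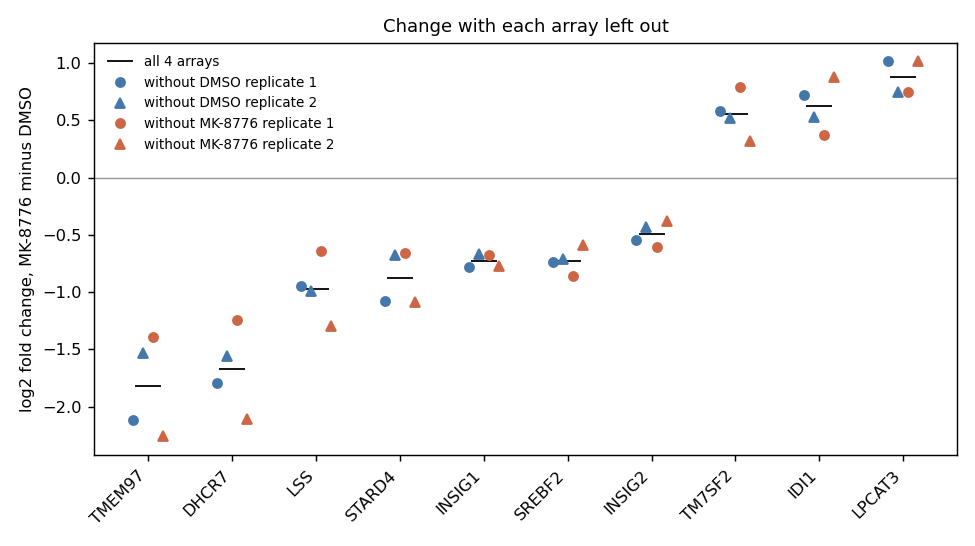
Log2 fold change (vertical axis, MK-8776 minus DMSO) of the 10 genes with an unadjusted p under 0.05, with all 4 arrays (bars) and with each array left out (points). The groups of these 10 do not overlap, so leaving out an array could not change their sign. TMEM97 ranges from -2.26 to -1.39 and INSIG1 from -0.79 to -0.67.

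Other genes around sterols were counted in 7 lists, of which the measured genes are given here. Over all genes tested 3.69% passed, 2.02% falling and 1.66% rising, and the median change was 0.005. The lists are small, and their counts were not tested against these shares. Of 9 genes of sterol sensing and enzyme turnover in the ER, 1 rose, 1 fell and 7 did not pass, with a median change of 0.31. ERLIN1, a membrane scaffold protein that takes part in the sterol-driven breakdown of ER proteins, read 12.39 and 12.81 in DMSO and 11.14 and 11.69 in MK-8776. ERLIN1 fell by 1.19 (SE 0.26, adjusted p = 0.0493, limma). UFD1, a cofactor of the extraction ATPase VCP, rose from 9.83 and 10.03 to 11.06 and 10.87, a change of 1.04 (SE 0.21, adjusted p = 0.0378, limma).

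Of 6 genes for electron donors and partners of the sterol enzymes, 0 passed in the limma fit and 4 reached an unadjusted p under 0.05, a cut that 18.8% of all genes met. LBR, the lamin B receptor, which also has sterol C14 reductase activity, was at 0.65 and CYB5A, a cytochrome b5 gene, at -0.59 (adjusted p = 0.141 and 0.164, limma). LBR and TM7SF2, which catalyse the same step, both measured higher on both MK-8776 arrays. ERG28, a scaffold of the sterol C4 enzymes, was at 0.54, and PGRMC2 at -0.55.

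Among 11 genes of enzymes that use isoprenoid diphosphates 0 passed, 1 had an unadjusted p under 0.05 (limma), and the median change was -0.33. FNTB, the beta subunit of farnesyltransferase, was at -0.57 (adjusted p = 0.195, limma) and NUS1, a subunit of the dolichol-forming transferase, at -0.43.

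Of 9 genes of sterol uptake and lysosomal exit 0 passed in the limma fit, and 2 had an unadjusted p under 0.05. VLDLR, a lipoprotein receptor, read 8.54 and 8.74 in DMSO and 7.90 and 7.42 in MK-8776 (change -0.98, SE 0.24, adjusted p = 0.0662, limma). SCARB2, a lysosomal membrane protein, had a change of 0.69 (adjusted p = 0.126, limma). LIPA, the lysosomal acid lipase that frees cholesterol from its esters, was at -0.42. The list's median was -0.26.

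Of 14 genes of sterol transfer and ester turnover, 2 fell, 0 rose and 12 did not pass, with a median of 0.18. GRAMD1A and GRAMD1C encode ER proteins that bring cholesterol from the plasma membrane to the ER. GRAMD1A fell from 9.41 and 9.71 to 8.48 and 8.17, a change of -1.24 (SE 0.23, adjusted p = 0.0272, limma). GRAMD1C fell from 6.11 and 5.54 to 4.62 and 4.50, a change of -1.27 (SE 0.25, adjusted p = 0.0324, limma). The third family gene, GRAMD1B, was at -0.75 (SE 0.30) and did not pass (adjusted p = 0.225, limma). CYP27A1 and CH25H, which make oxysterols, lay under the lower quartile in both groups, between 2.78 and 3.92 on the arrays, so their lack of a call says little.

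In the LXR list 2 of 6 measured genes fell and 0 rose, with a median of -0.41, while 2.02% of all genes fell. ABCA1, the main cholesterol efflux pump, read 10.48 and 11.02 in DMSO and 9.39 and 9.38 in MK-8776. ABCA1 fell by 1.37 (SE 0.24, adjusted p = 0.0246, limma). SREBF1, the gene of SREBP1, read 10.33 and 10.26 in DMSO and 8.43 and 8.25 in MK-8776. SREBF1 fell by 1.96 (SE 0.21, adjusted p = 0.00414, limma), beside the -0.73 of SREBF2, and the difference between these was not tested. LPCAT3, known as an LXR target but not in this list, measured higher after MK-8776 without passing (adjusted p = 0.0735, limma). Any part of LXR in the changes of ABCA1, SREBF1 and LPCAT3 was not tested.

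Of 10 genes of fatty acid synthesis, which is driven mainly by SREBP1, 2 fell, 1 rose and 7 did not pass, with a median of -0.66. FADS2, a desaturase, fell from 11.38 and 11.41 to 9.75 and 10.31, and ME1, which supplies NADPH, rose from 9.81 and 9.53 to 12.25 and 11.75 (adjusted p = 0.0247 and 0.00414, limma). The third call was the desaturase gene SCD, which read 11.24 and 12.49 in DMSO and 8.56 and 9.28 in MK-8776. Next to this list the 18 enzyme genes of sterol synthesis had a median of -0.035, a description without a test. As with TMEM97 and DHCR7, the 9 calls made in these lists by limma did not hold with any array left out. Few or no genes of the whole array passed in such fits. With the replicate number as a block SREBF1, SCD and ME1 held, and ERLIN1, UFD1, GRAMD1A, GRAMD1C, ABCA1 and FADS2 had an adjusted p between 0.0564 and 0.0789. ERLIN1 also missed with all features tested (0.0600).

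**Figure D4:**
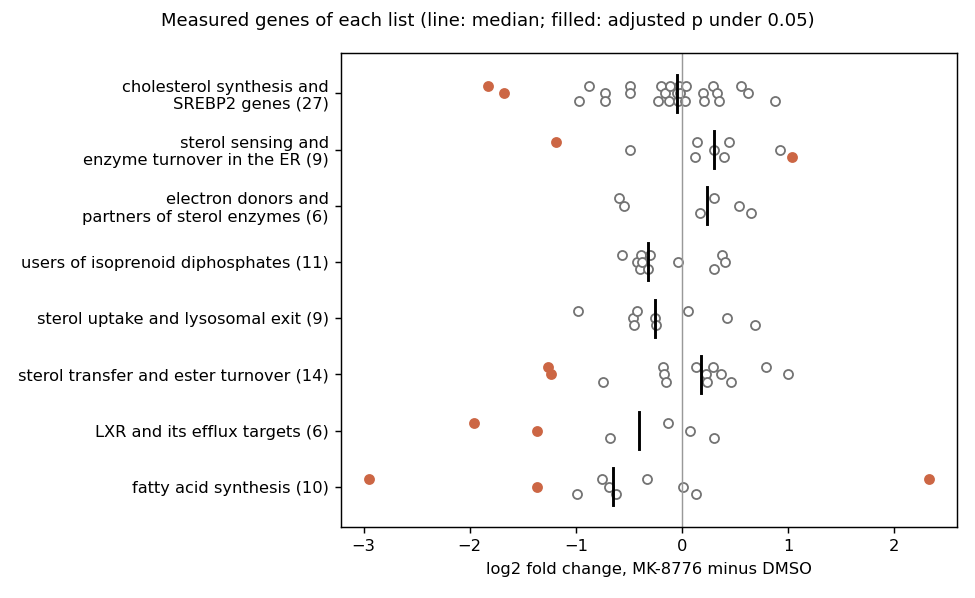
Log2 fold change (horizontal axis, MK-8776 minus DMSO) of every measured gene in the 27-gene set and in 7 other lists, with the number of genes in brackets, a line at each median and filled points for an adjusted p under 0.05. Medians run from -0.66 for fatty acid synthesis to 0.31 for sterol sensing and enzyme turnover, and that of the 27 genes is -0.045.

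The arrays and the lineage of the cells were checked as well. Across genes the arrays of a group correlated at 0.993 in both groups, and arrays of different groups at 0.981 to 0.989. MPO, the promyelocyte peroxidase, read 16.09 and 16.27 in DMSO and 14.81 and 15.36 in MK-8776. These values lie near the top of the range of all values (2.16 to 18.54). Other myeloid markers were far lower: CTSG, PRTN3 and AZU1 had means of 8.53, 7.32 and 7.08 in DMSO. In MK-8776 their means were 6.33, 5.32 and 5.88. KIT, CD8A, MS4A1, ALAS2 and GP9 were under the lower quartile in both groups, whereas CD4, CD79A and ITGA2B were not. Of 24 measured markers of blood and other lineages 4 fell (CTSG, PRTN3, CD3E and ITGA2B), 2 rose (CD14 and KRT18) and 18 did not pass. Over all genes 2.02% fell and 1.66% rose. Marker levels were summed on the linear scale and given as log2, so a sum lies close to its brightest marker, such as MPO, CD4 or CD68. The sum of the 5 myeloid markers ran from 16.10 to 16.29 in DMSO and from 14.82 to 15.37 in MK-8776. That of the 3 megakaryocyte markers ran from 9.19 to 9.38 and from 7.75 to 8.10, and that of the 4 T cell markers from 11.27 to 11.75 and from 10.86 to 11.38. For the 3 monocyte and macrophage markers it ran from 10.49 to 10.74 and from 9.96 to 10.46, and for the 3 stromal or epithelial markers from 8.62 to 8.81 and from 9.23 to 9.69. Their part in the results for TMEM97 and DHCR7 was not tested.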

How the data were processed

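The authors deposited a log2 expression value for each feature on each array, made with RMA on genome build hg38, per the submitters' processing notes. RMA corrects background, normalizes between arrays and summarises probes. Its version and settings were not given in the sources used here. The log2 scale was read from the values. No detection call was used, and the number of arrays, not a count, limits precision. RMA makes arrays alike in distribution, so changes are relative to other genes. Of 21448 features, 17709 carried 1 gene symbol, 0 several and 3739 none; all 17709 were matched to RefSeq (GRCh38.p14) by gene number. The feature with the highest mean stood for a gene, leaving 17687.

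The fit was limma 3.58.1 in R 4.3.3 (lmFit, eBayes, two-sided, no filter), with 2 residual and 6.30 prior degrees of freedom, tested on simulated data. An exact permutation test of 2 against 2 arrays cannot go below p = 0.333. The genes and lists were chosen with earlier results of these data known. All 27 genes are described. Of other lists, genes past the threshold (up to 4) or else the 2 largest changes are named. LIPA, ERG28, PGRMC2, GRAMD1B, CYP27A1 and CH25H were named after their values were seen. Listed genes without a feature of their own were not analysed here. Motifs were searched with Python 3.11.15.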

Additional observations from a re-analysis of the deposited data

How the results depend on the processing

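Alternatives tried were a replicate block, a variance trend, quantile normalization, centring on the median, a filter at the median level, all features, the mean of a gene's features, and leaving out each array. Over all genes the limma count of 652 went to 1185 with a variance trend and to 309 with the replicate block, and ran from 0 to 34 when 1 array was left out. Among the 27 cholesterol genes the 2 calls, TMEM97 and DHCR7, passed under each of the 7 alternatives that kept all arrays, and 0 passed with any array left out, where 1 group had a single array assumed to vary like the other. LPCAT3 was added with a variance trend and above the median level. The median change of the 27 stayed between -0.15 and 0.01. No called gene changed sign. With an array left out this was fixed in advance, since the groups of TMEM97 and of DHCR7 do not overlap. ACAT2, FDPS, GGPS1, SQLE, HSD17B7, EBP and MBTPS1, none of them called, changed sign in 1 to 3 of the 11 alternatives.

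The replicate numbers occur in both groups but tie the arrays to no shared culture or day. The difference of replicate 1 minus replicate 2 correlated between the groups at 0.14 across all genes and 0.43 across the 27, which are not independent replicates. The replicate block changed no call among the 27. Groups of 2 arrays are too small for the checks on single outlying arrays.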
